A study of Mus musculus with 32 samples.

Results

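The replication-dependent histone genes were taken as the genes whose symbol in the deposited RNA polymerase II (Pol II) table names a clustered H1, H2A, H2B, H3 or H4 gene, without pseudogenes. There were 63 of them among 27179 genes: 5 H1, 17 H2A, 17 H2B, 12 H3 and 12 H4 genes. By RefSeq positions (GRCm38.p6), 53 lay on mouse chromosome 13 and 10 on chromosome 3. On chromosome 13 they formed a block of 23 genes (chr13:21715711-22043658), a block of 28 genes (chr13:23531044-23764412) and a pair (chr13:23933725-23934913), and the chromosome 3 block ran over chr3:96219885-96270192. The table held reads for 62 of the 63. H2ac10 had 0 reads in all 8 profiles. If reads over it could be counted, this allows a share of up to 0.000138% of reads in frozen liver (3 reads) and up to 0.000347% in FFPE liver. Whether they could be counted is not stated in the sources used here.

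Replication-dependent histone genes supply the bulk of the core histones and linker histone H1 when a cell copies its DNA. They have no introns as a rule, are read by Pol II, and give messenger RNAs that end in a stem-loop instead of a poly(A) tail. NPAT gathers the transcription machinery at the gene clusters, and SLBP binds the stem-loop. Adult brain, heart, kidney and liver contain few dividing cells, and a low supply of histones also comes from replication-independent genes such as H3f3a and H3f3b, which encode H3.3.

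Pol II was measured by chromatin immunoprecipitation sequencing with an antibody to the Pol II C-terminal domain. A value thus counts DNA fragments recovered with that antibody over a gene and not its RNA. Input reads were not taken off, so the values also hold background fragments. The organs came from mice and were brain, heart, kidney and liver. Each was preserved by flash freezing or by formalin fixation with paraffin embedding (FFPE). Cores of frozen organs were crosslinked with formaldehyde after coring, whereas FFPE tissue was freed of paraffin and extracted with heat, and both were sheared by PIXUL, a multi-sample ultrasound device. Preservation and extraction therefore changed together, and their effects cannot be told apart. The labels used here give no strain, age, sex or genotype. They list 2 Pol II libraries for each organ and preservation, which differ in library kit and date, but the table has 1 column for each of the 8 combinations and does not say whether a column is 1 library or both. Each column is called a profile below, and p-values measure only the spread between these profiles.

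The deposited log2 values held whole reads once the added 0.5 reads and the scaling were undone, with 100% of values whole. The profiles held 864816 (FFPE liver) to 2178329 (frozen liver) reads in genes, and FFPE heart was also shallow at 923888. The mitochondrial part of the reads ran from 7.73% in brain, frozen or FFPE, to 25.6% in the FFPE heart profile. On the log2 scale a gene with 0 reads stands at -0.67 in FFPE heart and at -2.02 in FFPE brain. Markers fixed for each organ passed the test in their own organ for 7 of 7 neuron genes, 7 of 7 cardiomyocyte genes, 6 of 7 kidney tubule genes and 7 of 7 hepatocyte genes.

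The DNA just upstream of the histone genes shows which known elements the members share, and it is printed for the 8 H4 genes with the largest preservation differences among those with an entry, with or without a motif, and for some members of each other class that the results name. RefSeq promoter entries (GRCm38.p6) matched 58 of the 63 members with 59 entries; H2bc21, H2bc4, H3c1, H3c7 and H4c14 had none. The 250 bases before each annotated start were searched on both strands for 4 textbook motifs, chosen after the data had been seen. A match is a description of letters, not a measured binding site.

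Upstream of H4 genes, capitals mark GGTCCG, which is the core of the element called site II and is bound by the factor HINFP. A match to the TATA box, searched as TATAAA, is also in capitals.
H4c3 (chr13:23698459-23698538, minus strand): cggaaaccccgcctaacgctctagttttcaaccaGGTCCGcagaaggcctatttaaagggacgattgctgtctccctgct
H4c4 (chr13:23581488-23581567, plus strand): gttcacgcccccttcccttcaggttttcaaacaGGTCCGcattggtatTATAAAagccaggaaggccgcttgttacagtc
H4c9 (chr13:22041363-22041442, minus strand): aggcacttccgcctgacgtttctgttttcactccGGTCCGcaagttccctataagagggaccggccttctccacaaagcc
H4c17 (chr13:21811666-21811745, plus strand): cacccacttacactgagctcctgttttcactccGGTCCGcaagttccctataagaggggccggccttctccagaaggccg
H4c18 (chr13:21832198-21832277, minus strand): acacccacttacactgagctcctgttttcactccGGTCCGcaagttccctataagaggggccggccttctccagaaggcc
H4c8 (chr13:23530964-23531043, plus strand): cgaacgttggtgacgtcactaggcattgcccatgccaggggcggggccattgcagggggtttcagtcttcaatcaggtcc
H4c2 (chr13:23756857-23756936, plus strand): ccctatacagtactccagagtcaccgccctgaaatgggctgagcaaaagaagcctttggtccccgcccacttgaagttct
H4c1 (chr13:23761250-23761329, minus strand): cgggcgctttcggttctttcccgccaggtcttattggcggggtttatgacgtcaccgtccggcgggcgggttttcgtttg
GGTCCG lay upstream of 8 of 11 H4 entries, against 6.72% of the 32851 promoter entries of all genes. Its first base was 46 or 47 bases before the start in H4c3, H4c4, H4c6, H4c9, H4c17 and H4c18 (positions -46 and -47). In H4c8 the core straddled the annotated start, with its first base at -5, so the window above ends within it. No match lay in the 250 bases upstream of H4c1 or H4c2. In H4c2 the core began 6 bases past the annotated start, and H4c1 had none in its whole entry. Over whole entries, 10 of 11 held the core. The preservation differences of H4c1 and H4c2 (-1.19 and -1.26) were between those of H4c3 and H4c9 and did not pass the threshold. H4c17 and H4c18 shared 249 of 249 upstream bases when shifted by 1 base, and H2bc23 and H2bc24 had identical 300-base entries. The sources used here do not state how reads that map to such copies were counted, so the values of these copies are uncertain one by one.

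Upstream of the other classes, capitals mark CCAAT, the box that NF-Y binds and that reads ATTGG on the other strand. They also mark ATTTGCAT, the octamer that OCT1 binds, and TATAAA. H2ac8 and H2bc8 are read away from each other, and the first sequence is the whole stretch of 179 bases between their starts.
H2ac8 to H2bc8 (chr13:23571221-23571399, plus strand): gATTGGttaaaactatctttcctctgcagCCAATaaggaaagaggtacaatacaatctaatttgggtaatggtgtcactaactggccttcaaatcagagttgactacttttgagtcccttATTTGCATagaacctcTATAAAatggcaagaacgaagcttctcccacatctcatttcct
H2bc18 (chr3:96269580-96269699, plus strand): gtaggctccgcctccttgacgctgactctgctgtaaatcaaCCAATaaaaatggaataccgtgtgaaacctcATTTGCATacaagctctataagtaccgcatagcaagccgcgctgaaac
H2ac18 (chr3:96245377-96245496, plus strand): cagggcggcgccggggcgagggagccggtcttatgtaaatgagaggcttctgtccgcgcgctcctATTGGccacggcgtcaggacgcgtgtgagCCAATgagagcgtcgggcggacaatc
H1f4 (chr13:23622559-23622678, minus strand): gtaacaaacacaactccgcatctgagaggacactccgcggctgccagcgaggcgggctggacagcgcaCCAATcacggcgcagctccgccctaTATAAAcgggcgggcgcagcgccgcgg
H1f2 (chr13:23738687-23738806, plus strand): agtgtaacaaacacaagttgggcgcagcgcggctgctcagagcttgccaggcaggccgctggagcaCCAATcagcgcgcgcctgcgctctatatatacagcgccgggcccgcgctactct
H3c6 (chr13:23562386-23562505, minus strand): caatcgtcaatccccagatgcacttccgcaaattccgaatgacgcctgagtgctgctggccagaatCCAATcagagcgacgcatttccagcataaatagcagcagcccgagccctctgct
CCAAT lay upstream of all 5 H1, 17 H2A and 16 H2B entries and of 8 of 10 H3 entries, but of 3 of 11 H4 entries; 33.8% of all entries held it. The octamer occurred in 6 of 17 H2A and 7 of 16 H2B entries and in none of the H1, H3 or H4 entries, against 1.60% of all entries. Every H2A match lay on the opposite strand and every H2B match on the gene's own strand. Windows of H2A and H2B genes read away from each other overlap, so a site can count for both. This held for the octamers of H2ac8 and H2bc8, H2ac12 and H2bc12, and H2ac1 and H2bc1. TATAAA occurred in 28 of 59 entries, against 12.4% of all entries, counting any position on either strand. On the gene's own strand it began at -26 to -33 in 4 H1 entries and at -30 to -42 in 6 H2A entries. The 6 H4 matches were spread from -16 to -250, with a median of -127.5. Of the H2B entries, 4 held it on the opposite strand at -190 to -212. The count is therefore not one of TATA boxes at the usual place. In the 5 H1 entries a CCAAT in the gene's own direction began 51 to 56 bases before the start (H1f3 at -51, H1f1 at -56), and H1f5 had another farther upstream.

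**Figure D1:**
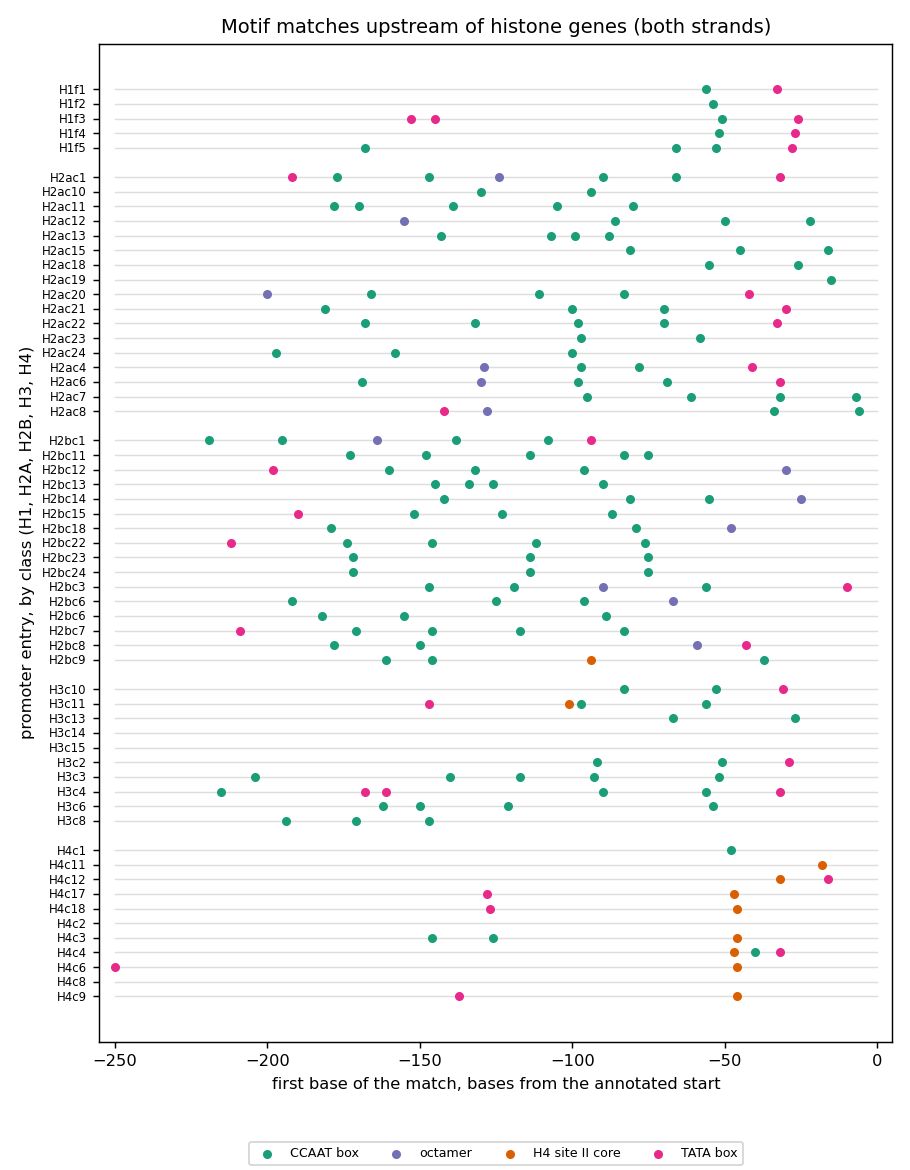
Position of each motif match in the 250 bases before the annotated start (x axis, bases from the start), one line per promoter entry, grouped by histone class. The site II core (GGTCCG) sits in the H4 group near the start, with 1 match each among the H2B and H3 entries, whereas CCAAT is found in all H1, H2A and H2B entries.

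Levels were compared between members per kilobase of gene span, over the 57 members with a span under 1 kb. Averaged over the 8 profiles, the member with the highest log2 value per kb was H4c3 among the H4 genes (7.42), H2ac18 among H2A (7.39), H1f4 among H1 (7.21), H2bc18 among H2B (6.80) and H3c7 among H3 (6.20). Lowest of their class, among members with reads in every profile, were the testis genes H2ac1 (H2A, 2.15) and H2bc1 (H2B, 2.59). For H1, H3 and H4 the lowest were H1f5 (3.97), H3c2 (4.37) and H4c11 (4.82). The median member of this size stood at 6.67 per kb in frozen liver and at 4.97 in FFPE liver, and the median of the other genes with a span under 1 kb stood at 2.13 and 2.64. Across the 62 members with reads, frozen and FFPE levels of an organ ran together, with Pearson's r of 0.89 for brain and 0.86 for kidney, 0.84 for heart and 0.77 for liver. These correlations run over genes of the same profiles and are a description only.

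The first comparison set the 4 FFPE profiles against the 4 frozen profiles, organ by organ. Pol II over the histone genes was lower in FFPE tissue. Of the 62 members tested, 12 fell and 0 rose past an adjusted p of 0.05, against a background of 0.422% of all 26758 genes tested that fell and 0.153% that rose (limma, organ in the model, Benjamini-Hochberg adjustment). At an unadjusted p under 0.05, 38 members were lower and 0 higher, against 5.53% and 3.79% of all genes. The median member differed by -0.79 on the log2 scale, and the median of all genes by -0.01. The fitted difference was below 0 for 57 of 62 members, and 32 were lower in FFPE in all 4 organs, against 8.45% of all genes.

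The H4 genes, which encode the core histone that pairs with H3 in the nucleosome, held 6 of the 12 members that fell. The deposited log2 value of H4c4 was 6.40, 6.67, 4.91 and 7.91 in frozen brain, heart, kidney and liver, and 5.16, 5.63, 3.36 and 5.29 in the FFPE profiles of the same organs. Each FFPE profile was lower than the frozen one of its organ, although frozen kidney lay below 3 of the FFPE profiles. The fitted difference of H4c4 was -1.61 ± 0.25 (SE, adjusted p = 0.00197). H4c18 read 6.28, 6.46, 4.80 and 7.49 in the frozen profiles and 5.16, 4.61, 3.93 and 3.74 in the FFPE profiles, again lower in every organ and lowest in FFPE liver. Its difference was -1.90 ± 0.33 (adjusted p = 0.0055), the largest among the members. H4c8, the H4 gene whose core lies at the annotated start, read 6.79, 6.75, 5.71 and 7.72 frozen and 5.74, 5.56, 5.01 and 5.41 in FFPE. All of its FFPE values except that of brain lay below all of its frozen values, with a difference of -1.32 ± 0.23 (adjusted p = 0.00621). The other H4 genes past the threshold were H4c14 (-1.37, adjusted p = 0.0107), H4c9 (-1.29, adjusted p = 0.0306) and H4c3 (-1.15, adjusted p = 0.0422). H4c17, the near copy of H4c18, had a difference of -1.63 and an adjusted p of 0.0801. All 12 H4 genes had a fitted difference below 0, from -1.90 (H4c18) to -0.63 (H4c6), with a median of -1.27.

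Among the H2A and H2B genes, whose proteins form the outer dimers of the nucleosome core, 2 of 16 and 2 of 17 fell. H2ac19 read 6.76, 7.19, 5.95 and 7.62 in frozen brain, heart, kidney and liver and 5.77, 5.84, 4.98 and 5.03 in FFPE, so its groups did not overlap. Its difference was -1.48 ± 0.24 (adjusted p = 0.00304). H2bc18 read 6.97, 7.11, 5.18 and 7.08 frozen and 5.78, 5.21, 4.53 and 4.39 in FFPE, where frozen kidney lay below FFPE brain and FFPE heart. The difference was -1.61 ± 0.26 (adjusted p = 0.00315). H2bc3 differed by -1.57 (adjusted p = 0.0422) and H2ac18 by -0.97 (adjusted p = 0.0486). H2ac18, H2ac19 and H2bc18 all lie in the chromosome 3 block. At the other end of these classes stood H2ac22 at 0.24 and H2bc14 at -0.21, neither past the threshold. The groups did not overlap, with every FFPE profile below every frozen one, in 10 of 62 members, against 1.33% of all genes.

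The linker histone genes, whose proteins bind the DNA between nucleosomes, and the H3 genes held 1 member each that fell. H1f4 read 6.75, 7.20, 6.98 and 8.75 in the frozen profiles and 6.26, 6.49, 6.02 and 6.41 in the FFPE profiles. Every FFPE value lay below every frozen value, and the difference was -1.13 ± 0.24 (adjusted p = 0.0264). The differences of H1f2, H1f3, H1f5 and H1f1 were -0.91, -0.66, -0.58 and -0.49, none past the threshold. H3c7 read 6.75, 6.85, 5.51 and 7.02 frozen and 5.74, 5.80, 5.27 and 5.51 in FFPE, with frozen kidney inside the range of the FFPE profiles. Its difference was -0.95 ± 0.22 (adjusted p = 0.0479). The H3 class also held 4 of the 5 members with a fitted difference above 0, H3c8 (0.52), H3c3 (0.23), H3c2 (0.06) and H3c14 (0.03).

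**Figure D2:**
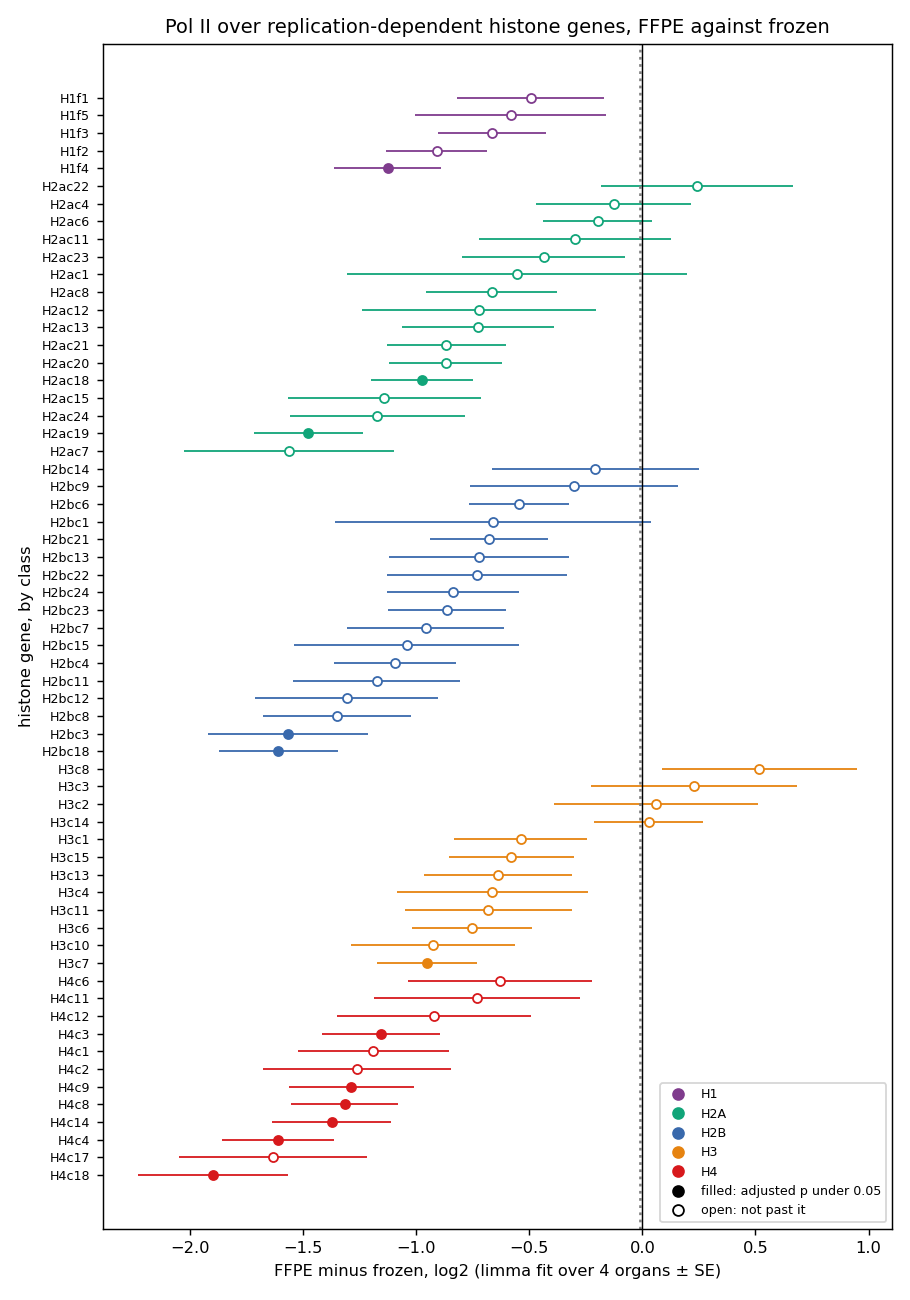
Fitted FFPE minus frozen difference of each of the 62 tested histone genes (x axis, log2, limma over 4 organs; bars are ± 1 SE), grouped by class; filled points passed an adjusted p of 0.05 and the dotted line is the median of all genes. Most points lie left of 0, and 6 of the 12 filled points are H4 genes.

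The 12 members that fell carried 326 to 1869 reads over the 8 profiles, with a median of 968, and the 50 others carried 24 to 1535, with a median of 268.5. The count of members that fell depended on single profiles: it was 1 without the frozen or the FFPE heart profile, 5 without frozen liver, 6 without FFPE liver or frozen brain, 7 without FFPE brain and 9 without either kidney profile. These 8 runs are not 8 separate checks. With organ in the model, the partner of a missing profile adds nothing to the fitted FFPE difference. Both runs of an organ therefore share their fitted differences, although their counts can differ. The median of all genes, for example, was -0.0161 without frozen brain and also without FFPE brain. Of the 12 members, H4c4 kept its call without any 1 of the 8 profiles. H4c18, H4c8, H2ac19 and H2bc18 kept it in 6 of 8, losing it without a heart profile. H4c14 kept it in 3 of 8, H1f4, H4c3, H2bc3 and H3c7 in 2, H4c9 in 1 and H2ac18 in 0. Without organ in the model 0 members fell, with differences between organs then counted as spread.

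By chromosome block, the median difference was -0.87 on chromosome 3 (4 of 10 fell), -0.84 in the first block on chromosome 13 (2 of 23) and -0.75 in the second (6 of 27). The other genes of the table inside the chromosome 13 interval had a median of -0.13, and 0 of 52 passed the threshold. Other genes with a span under 1 kb had a median of 0.01. Both groups stood low, with median log2 values per profile of 2.12 to 2.62 and of 1.23 to 1.68. The members stood at 3.93 to 5.90. A fall is hard to see at such low levels, so these medians are weak comparisons. Pairs of H2A and H2B genes read away from each other numbered 10, with starts 164 to 281 bases apart. In the 4 pairs with the most reads the fitted differences were -0.67 and -1.35 for H2ac8 and H2bc8, -0.86 and -0.43 for H2bc23 and H2ac23, -1.17 and -0.84 for H2ac24 and H2bc24, and -0.96 and -1.56 for H2bc7 and H2ac7. None of these 8 genes passed the threshold, and differences between partners were not tested.

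Sums over a class do not depend on how reads were split among its copies. All members together took 0.455% of the reads in genes in frozen liver, 0.307% in frozen heart, 0.272% in frozen brain and 0.176% in frozen kidney. The FFPE shares in that order were 0.146%, 0.161%, 0.180% and 0.117%, a narrower range. The frozen share was 3.11 times the FFPE share in liver, 1.91 times in heart and 1.51 times in both brain and kidney. In frozen liver the sum was 9909 reads and in FFPE liver 1263, the smallest of the 8. With mitochondrial reads left out of the totals, the log2 difference moved from -0.93 to -0.69 in heart and from -0.59 to -0.40 in kidney. For the H3 genes alone in kidney it moved from -0.16 to 0.03.

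H4 genes changed most in this sum. Their share of reads was 0.125% in frozen liver (95% exact binomial interval 0.120 to 0.130) and 0.0247% in FFPE liver (0.0215 to 0.0283), a 5.04-fold difference. The intervals here and below cover counting error only. Of the reads over all histone genes, H4 genes took 27.5% in frozen brain and 21.0% in FFPE brain, 23.0% and 19.1% in heart, 16.8% and 14.6% in kidney, and 27.4% and 16.9% in liver. H3 genes took 15.8% and 17.1% in brain, 12.9% and 16.7% in heart, 14.0% and 18.9% in kidney, and 14.0% and 20.9% in liver. The H4 part of the histone reads was thus lower, and the H3 part higher, in the FFPE profile of each organ. A share within the histone genes does not depend on the scaling of the profile, and it was not tested.

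**Figure D3:**
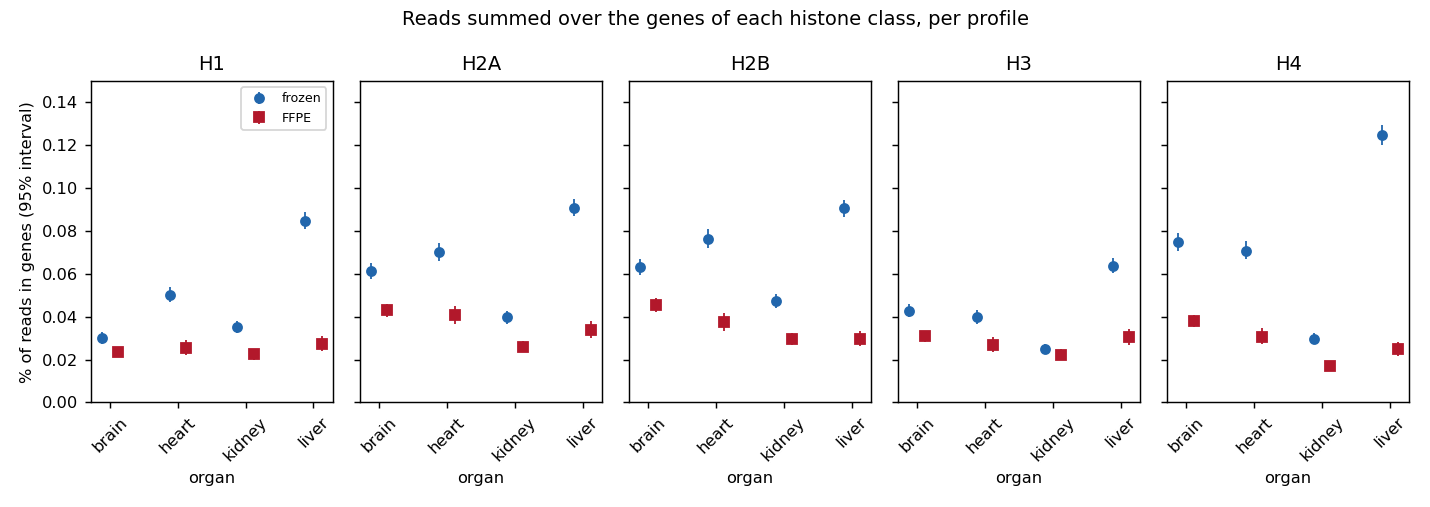
Reads summed over the genes of each histone class as a percentage of all reads in genes (y axis) for each organ (x axis), frozen as circles and FFPE as squares, with 95% exact binomial intervals. Frozen liver is the highest point in each class, up to 0.125% for H4, and the FFPE points lie at or below the frozen ones of their organ. For H3 in kidney the intervals of both points overlap.

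The gap was widest in liver. The median member differed between FFPE and frozen by -1.86 in liver, against -0.76 for heart, -0.51 for brain and -0.36 for kidney, with medians of all genes between -0.02 and 0.01. In liver 60 of 62 members were lower in FFPE, and 55 were lower by at least 1 on the log2 scale, against 14.4% of all genes. The counts lower by at least 1 were 19 in heart (11.7% of all genes), 14 in brain (6.76%) and 9 in kidney (11.4%). Whether the FFPE effect of an organ differed from that of the other 3 was tested with limma on the 4 FFPE minus frozen values, a test added after the data had been seen. It sets 1 value against 3, so its spread comes from the other organs and the lone organ is assumed to vary as they do. In liver 4 of 62 members passed an adjusted p of 0.05 as lower, against 0.419% of all genes, and 32 had an unadjusted p under 0.05, against 6.78%. In brain, heart and kidney 0 members passed in limma, as did 0.0% of all genes, and at an unadjusted p under 0.05 the members numbered 1, 1 and 8, all higher, against 0.848%, 3.13% and 1.59% of all genes.

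The 4 members past this threshold in liver were H4c17, H4c18, H2ac7 and H1f4, and no replicate of the liver value was at hand to check them. H4c17 and H4c18 are near copies whose values are uncertain one by one, so their calls may not be separate. H4c17 had 86, 84, 37 and 224 reads in frozen brain, heart, kidney and liver and 65, 14, 22 and 6 in FFPE. Its FFPE minus frozen value was -4.10 in liver and -0.50, -1.64 and -0.29 in brain, heart and kidney, a difference of -3.29 ± 0.62 (adjusted p = 0.00615). H2ac7 had 86 reads in frozen liver and 2 in FFPE liver, and its value of -4.10 in liver compared with -0.43, -0.94 and -0.77 in the other organs (difference -3.39 ± 0.78, adjusted p = 0.032). For H1f4, with 809 reads in frozen and 79 in FFPE liver, the value was -2.34 in liver and -0.49, -0.71 and -0.96 elsewhere (difference -1.62 ± 0.38, adjusted p = 0.0384). H4c18 differed by -2.46 ± 0.52 (adjusted p = 0.0172). Hepatocyte markers were also lower in FFPE liver, with a median of -2.31 over 7 genes. Their summed share reached at most 0.750% of reads in frozen profiles and 0.169% in FFPE profiles, both in liver. In their own organ the other markers had medians of -0.94 (cardiomyocytes, heart), -0.58 (kidney tubule, kidney) and -0.16 (neurons, brain). The part of these marker differences in the histone result was not tested.

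**Figure D4:**
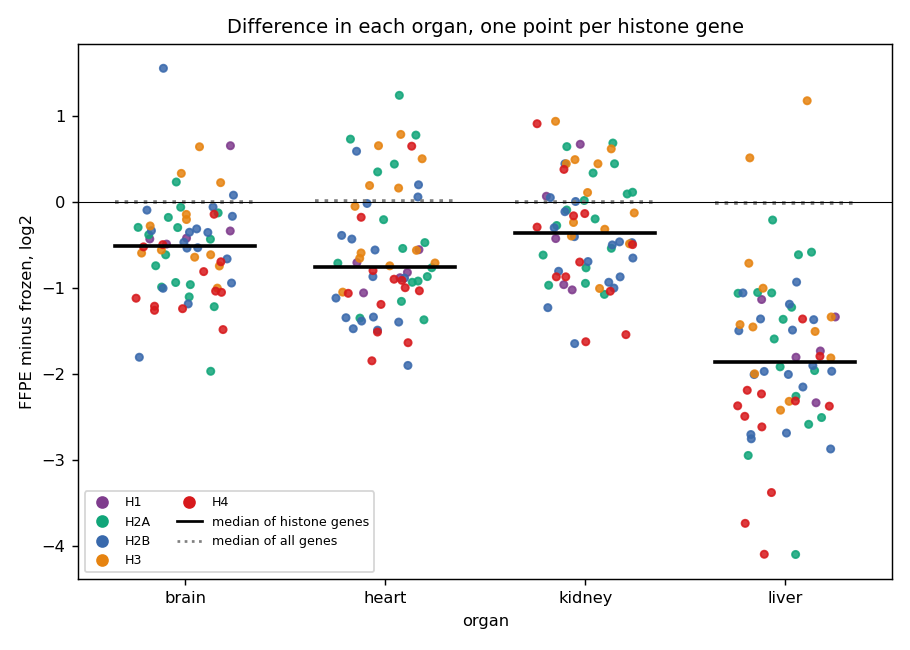
FFPE minus frozen difference (y axis, log2) of each of the 62 histone genes in each organ, coloured by class, with the median of the histone genes as a solid line and that of all genes as a dotted line. The solid lines stand at -0.51, -0.76, -0.36 and -1.86 in brain, heart, kidney and liver.

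The second comparison set each organ against the mean of the other 3, with preservation in the model (2 profiles against 6). Frozen liver was the highest frozen profile for 52 of 62 members (28.1% of all genes) and frozen kidney the lowest for 45 (21.8% of all genes). In FFPE tissue heart was the highest profile for 34 members (29.0% of all genes) and kidney the lowest for 28 (23.4%).

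In kidney 7 members fell and 0 rose, against 0.456% and 0.919% of all genes, and the median member differed by -0.69 (all genes, -0.00). At an unadjusted p under 0.05, 26 members were lower and 0 higher in kidney, against 5.55% and 5.09% of all genes. Of the 7, 5 were H4 genes: H4c11 (-2.59, adjusted p = 0.00969), H4c4 (-2.04, adjusted p = 0.000263), H4c3 (-1.36, adjusted p = 0.0188), H4c9 (-1.30, adjusted p = 0.0402) and H4c14 (-1.20, adjusted p = 0.047). The others were the H2B genes H2bc15 (-2.30, adjusted p = 0.0452) and H2bc18 (-1.24, adjusted p = 0.0402). H4c11 had 10 reads in frozen kidney and 2 in FFPE kidney, against 30, 24 and 73 in frozen brain, heart and liver and 29, 20 and 10 in FFPE. Both of its kidney profiles were the lowest of their preservation. The median difference of kidney was -1.01 among frozen profiles (60 of 62 members lower) and -0.32 among FFPE profiles (46 lower). The count that fell was 0 without frozen kidney, 3 without FFPE kidney or frozen brain, 2 without FFPE brain or either heart profile, 25 without FFPE liver and 7 without frozen liver. With 1 profile left out, H4c4 kept its call in 7 of 8 cases, H4c11 in 6, H4c3 in 4, H4c9, H4c14 and H2bc18 in 2 and H2bc15 in 1.

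In liver 4 members rose and 0 fell, against 4.52% and 3.39% of all genes, so the share called was near the background, and at an unadjusted p under 0.05, 14 were higher and 0 lower, against 9.38% and 9.93%. They were H4c4 (1.25, adjusted p = 0.00702), H3c6 (1.03, adjusted p = 0.0408), H4c3 (1.01, adjusted p = 0.0397) and H1f4 (0.97, adjusted p = 0.0289). The median member was 0.46 higher in liver, but the direction turned with preservation. It was 1.14 among frozen profiles, with 59 of 62 members higher, and -0.14 among FFPE profiles, with 24 higher. Leaving out a liver profile leaves liver measured in 1 preservation only, so the medians repeat those just given and are no further check. Without frozen liver 0 members rose and the median was -0.14, and without FFPE liver 23 rose. The count was 1 without frozen brain, frozen kidney or either heart profile, 2 without FFPE brain and 5 without FFPE kidney. H4c4 kept its call in 7 of 8 cases, and H3c6, H4c3 and H1f4 in 2 each.

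The share of members called was below the background in brain and near it in heart, and 1 linker histone gene, H1f2, passed in both. H1f2 read 5.58 and 5.24 in frozen and FFPE brain, 7.97 and 6.91 in heart, 6.68 and 6.25 in kidney and 8.13 and 6.32 in liver. Both brain profiles lay below all others, with a difference of -1.64 ± 0.26 (adjusted p = 0.000233). It was the only member that fell in brain, against 4.02% of all genes, and 0 rose, against 3.43%; at an unadjusted p under 0.05, 4 were lower and 2 higher in limma, against 10.3% and 7.98%. Without frozen brain its adjusted p was 0.129; without any 1 of the other profiles it stayed past the threshold. In heart H1f2 was 1.07 ± 0.26 higher (adjusted p = 0.014), together with H2bc6 (0.94 ± 0.25, adjusted p = 0.0296), whose annotated span is 37455 bases. These 2 members compare with 3.06% of all genes that rose in heart, and 0 fell, against 2.18%; at an unadjusted p under 0.05 the limma counts were 7 higher and 0 lower, against 9.01% and 9.04%. Both lost the call without frozen heart, FFPE heart, frozen brain or frozen kidney, and H2bc6 also without FFPE kidney, and 9 members rose without frozen liver. Median differences were -0.00 in brain and 0.26 in heart.

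**Figure D5:**
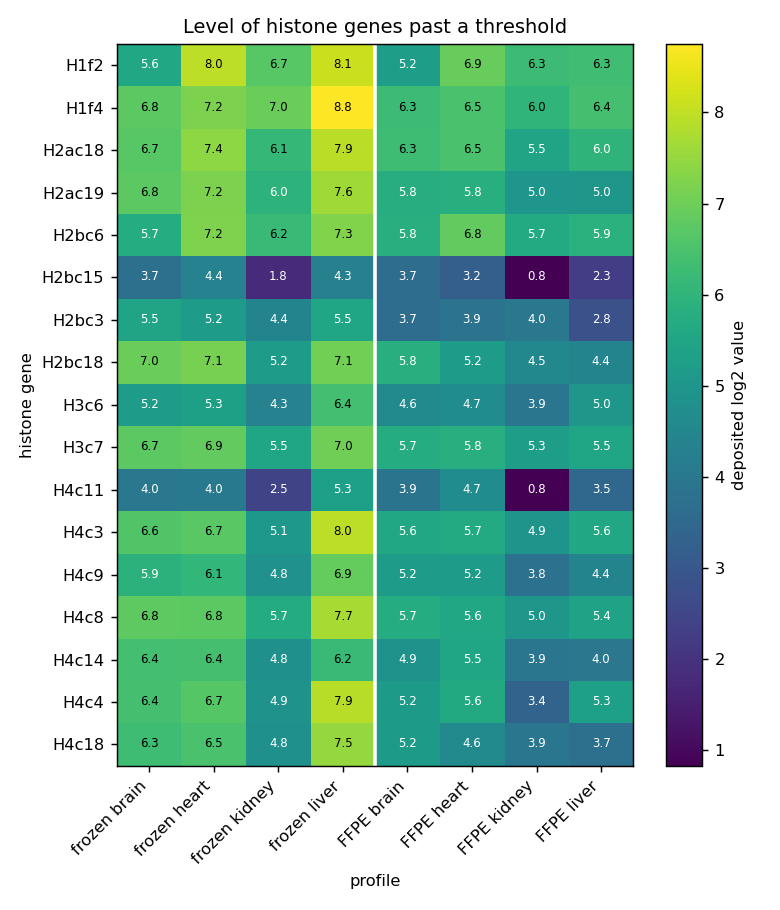
Deposited log2 value (colour and printed number) of the 17 histone genes that passed the threshold for preservation or for an organ, in the 4 frozen and the 4 FFPE profiles. The frozen liver column is the highest for most of them and the kidney columns hold the lowest values, down to 0.8 for H2bc15 and H4c11 in FFPE kidney.

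Genes that work with the histone genes were read from lists. Of 11 replication-independent histone genes 1 fell in FFPE tissue and 0 rose, with a median of -0.34. That gene was H3f3a, which encodes H3.3: it read 5.48, 6.30, 5.32 and 5.92 in frozen brain, heart, kidney and liver and 4.05, 4.82, 4.18 and 4.31 in FFPE. No FFPE value reached a frozen one, and the difference was -1.42 ± 0.25 (adjusted p = 0.00621). H3f3b, its partner gene, had a difference of -1.20 (adjusted p = 0.071), H2az1, for the variant H2A.Z, had -0.19, and the linker gene H1f0 had -0.63. H1f0 fell in brain (-0.83, adjusted p = 0.0333).

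Of 23 genes for histone gene transcription and messenger RNA processing, 14 chaperone genes and 28 S phase and proliferation genes, 0 passed the threshold between FFPE and frozen (limma), and their medians were 0.02, 0.17 and 0.11. The difference of Slbp, for the stem-loop binding protein, was -0.87 (adjusted p = 0.168), and that of Lsm10, for a subunit of the U7 particle that cuts histone transcripts, was -1.26 (adjusted p = 0.13). Npat, Hinfp, Casp8ap2 and Lsm11 had differences of -0.03, -0.56, 0.41 and -0.10. Among the proliferation genes Mki67, Top2a and Pcna had 0.21, 0.06 and -0.86, none past the threshold. The 7 cycling cell markers together took 0.0199% to 0.0296% of reads in frozen profiles and 0.0235% to 0.0272% in FFPE profiles, and none was at 0. Across organs Tk1, the S phase thymidine kinase, fell in brain (-1.79, adjusted p = 0.00106) and rose in liver (1.10, adjusted p = 0.0408), and no other gene of these 3 lists passed. In tissue, fewer cells in S phase and less Pol II per cell cannot be told apart.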

How the data were processed

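Per the submitters' processing notes, reads were handled with Bowtie2, featureCounts and limma on mm10; the sources used here state no versions, strand settings or treatment of reads with several matches. The authors deposited log2 values per gene with 0.5 reads added and scaled by library (from the values), and the input libraries were not analysed here. Whole reads were solved from them (relative tolerance 1e-06). Of 27179 genes, 26758 passed the filter (log2 of 0 or more in 2 or more of 8 profiles). They were tested in R 4.3.3 with limma 3.58.1 (trended empirical Bayes, organ and preservation as terms, 3 residual and 19.4 prior degrees of freedom), and adjusted p-values run over all of them. Code was tested on simulated data. Members and lists were chosen with earlier results of these data known. Genes were named by rule: the highest and lowest level and difference of each class, up to 6 members past a threshold in each direction, all H1 genes, the 4 deepest H2A and H2B pairs, and fixed pathway genes. Named outside that rule, after their values were seen, were H4c1, H4c2, H4c8, H4c17, H3c3, H3c14 and H2ac10. Alternatives changed scaling, added reads, filter, weights, terms, threshold and profiles.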

Additional observations from a re-analysis of the deposited data

Results flagged for a closer look

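In each set of 4 organs the FFPE minus frozen values of a named gene were searched for an organ that stood apart from the others. In all, 60 sets were looked at, and chance flags about 1 in 20. The 3 genes flagged in this way, H2ac7, Slbp and Top2a, are about as many as chance would flag. Liver stood apart for H2ac7, an H2A gene, at -4.10 on the log2 scale. Kidney stood apart for Slbp, the stem-loop binding protein gene, at 0.0555, where the other organs read -1.29 to -1.09. Heart stood apart for Top2a, a topoisomerase of dividing cells, at 0.84. In 4 members the FFPE minus frozen value of liver differed from that of the other 3 organs past the threshold. The limma test of that difference was added after the data had been seen, sets 1 value against 3 and assumes that liver varies like the others: H4c17 by -3.29, H4c18 by -2.46, H2ac7 by -3.39 and H1f4 by -1.62. H4c17 and H4c18 are near copies, so their values are uncertain one by one. FFPE liver had the fewest reads in genes of the 8 profiles, 864816, and its part in these differences was not tested.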

How the results depend on the processing

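The median of the members between FFPE and frozen stayed below 0 in every alternative run, from -0.93 to -0.56 when a profile was left out. With 1 profile left out, the members that fell in FFPE numbered 1 to 9 and those that rose 0. Both runs of an organ share their fitted FFPE differences, so they are not separate checks of this comparison. Without an organ term 0 fell. In the same way the counts ran from 0 to 3 higher and 0 to 6 lower in brain, 0 to 9 higher in heart, 0 to 25 lower in kidney, and 0 to 23 higher and 0 to 1 lower in liver. The medians ran from -0.21 to 0.29 in brain, 0.0882 to 0.511 in heart, -1.01 to -0.32 in kidney and -0.14 to 1.14 in liver. The ends of the kidney and liver ranges are the medians within frozen or FFPE profiles given above. Quantile normalization gave 1 higher in brain and 1 higher in liver. Scaling to silent receptor genes, which put the median of all genes at -0.20 for FFPE (-0.01 as reported) and at 0.25 for heart (-0.00 as reported), gave 1 higher in heart with a median of 0.52, 4 lower in kidney and 1 higher in liver. Added reads in proportion to depth, and no filter, each gave 3 lower in kidney. Weights from voom gave 2 lower in brain, 17 lower in kidney and 20 higher in liver. A threshold of 0.1 gave 3 lower in brain, 14 lower in kidney and 7 higher in liver. Over nuclear genes only, the summed share changed by -0.69 in heart and -0.40 in kidney. The causes were not tested, other than fewer profiles. Of the 12 members that fell, H3c7 and H2ac18 kept the call in 1 and 2 of 8 other settings. H4c3 and H2bc3 kept it in 4 each, and the remaining members in 7. No paired analysis was possible because the columns carry no replicate numbers; organs were matched through the organ term. The sum over members with a protein of their own was not run, since no protein table was used here. Shallow FFPE heart and liver profiles limit members with few reads.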
